A study of Mus musculus with 47 samples.

Results

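The Hox genes encode homeodomain transcription factors that stand in 4 clusters, Hoxa, Hoxb, Hoxc and Hoxd, and are numbered by their place in the cluster. Genes of the same number in different clusters are paralogues. Every symbol made of Hoxa, Hoxb, Hoxc or Hoxd and a number was taken from the expression tables, which gave 39 genes among 24507 in the tables of unsorted cells and 26182 in those of sorted cells. Hoxa has 11 of them, Hoxb 10, Hoxc 9 and Hoxd 9. By position, 12 carry the paralogue numbers 1 to 4, 11 the numbers 5 to 8 and 16 the numbers 9 to 13.

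In the embryo the genes of a cluster are switched on in order, low numbers early and towards the head, high numbers later and towards the tail. Together they give cells of the hindbrain, trunk and limbs their position along the body axis. In pluripotent cells the clusters are known to lie under Polycomb repression, marked by methylation of histone H3 at lysine 27. Retinoic acid, Wnt and Fgf signals and the Cdx factors are known to open them, and TALE proteins of the Meis and Pbx families bind DNA together with Hox proteins.

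The RNA libraries came from E14Tg2A, a mouse embryonic stem cell (ESC) line grown in serum-free N2B27 medium with PD0325901, CHIR99021 and LIF, a culture that keeps ESCs undifferentiated. Cells received a control siRNA (siC) or one against Tdg (siTdg), the gene of the DNA repair enzyme thymine DNA glycosylase. ESCs were collected at 48 h and 96 h, further ESCs were sorted into the cell cycle phases G1 and G2M, and embryoid bodies (EBs), clumps of differentiating cells grown from transfected ESCs, were collected on day 11. Each of the 10 groups has 2 libraries, numbered 1 and 2. Nothing in the labels ties the 2 libraries of a group to different cultures, and a p-value here reflects library-to-library spread alone, possibly technical.

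Deposited values are RPKM, reads scaled by gene length and library size, from libraries of 20818174 to 41433232 recovered reads. Tdg stood at 46.0 and 43.4 RPKM in siC ESCs at 48 h against 7.34 and 13.2 in siTdg. In sorted cells its log2 difference, siTdg minus siC, was -2.67 in G1 (SE 0.18, limma adjusted p = 0.0233) and -2.54 in G2M (SE 0.18, adjusted p = 0.0331). At 96 h it stood at 35.8 and 46.0 RPKM in siC and 28.2 and 40.3 in the libraries labelled siTdg, and in EBs at 35.1 and 38.5 against 37.3 and 43.7, so Tdg RNA does not separate the siRNAs at those times. A list of 8 ESC markers summed to 1929 to 2831 RPKM in the ESC libraries and 10.3 to 24.3 in the 4 EB libraries. The EB libraries numbered 2 stood apart from those numbered 1: Hbb-bh1, an embryonic globin, had 217 and 413 RPKM in the libraries numbered 2 and 1.58 and 4.24 in those numbered 1.

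ESCs held little Hox RNA, and most of it came from posterior genes: in siC at 48 h the genes numbered 9 to 13 summed to 17.4 ± 0.307 of 24.5 ± 1.67 RPKM (mean ± SD, n = 2). In siC ESCs at 48 h, 6 of the 39 genes had a mean of at least 1 RPKM, 18 were under 0.1 RPKM and 5 of those (Hoxb1, Hoxb3, Hoxb5, Hoxb6 and Hoxd12) were listed at 0. Hoxc13, known for its role in hair and nails, was highest, with 6.43 and 5.73 RPKM at 48 h and 6.86 and 5.10 at 96 h. Its neighbour Hoxc12 had 3.31 and 4.53 RPKM at 48 h and 4.09 and 4.87 at 96 h. Hoxb13, which lies apart from the rest of its cluster and is known in tail and prostate development, had 2.75 and 1.80 RPKM at 48 h and 1.14 and 2.00 at 96 h. Hoxc13 and Hoxb13 carry the last number of their clusters.

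Hoxb9 and Hoxc4 were also above 1 RPKM in siC ESCs at 48 h. Hoxb9, a trunk gene, had 2.63 and 1.85 RPKM at 48 h and 3.26 and 1.43 at 96 h. Hoxc4, a gene of the neck and upper trunk, had 2.02 and 1.68 RPKM at 48 h and 1.20 and 1.82 at 96 h. The values of Hoxb13 and Hoxb9 overlap at 48 h, so these libraries set no order between them. At 96 h the summed RPKM was 14.2 ± 1.18 for Hoxc in siC ESCs, 4.27 ± 0.622 for Hoxb, 2.56 ± 0.906 for Hoxa and 1.63 ± 0.616 for Hoxd (mean ± SD, n = 2).

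**Figure D1:**
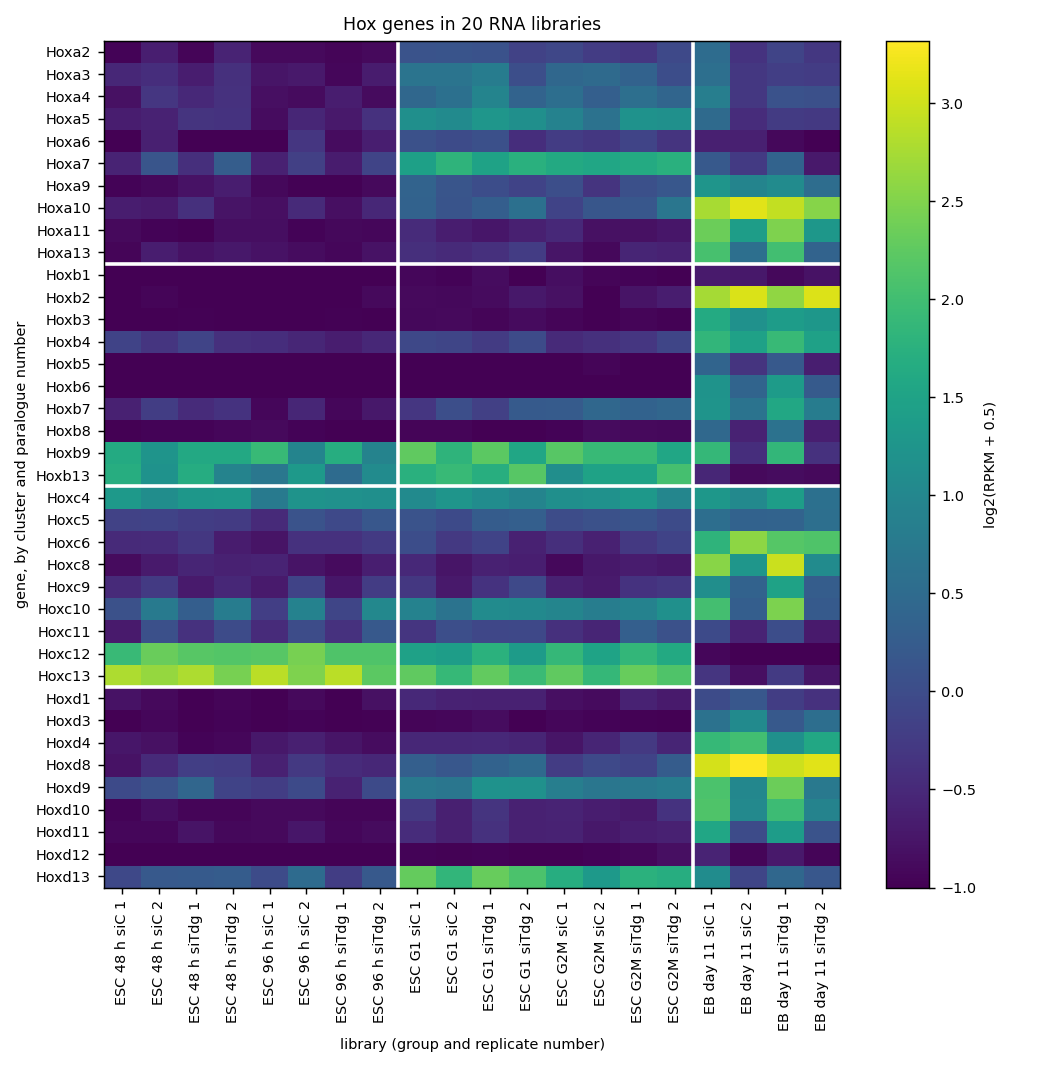
Levels of the Hox genes (rows, by cluster and paralogue number) in the 20 RNA libraries (columns), as log2(RPKM + 0.5) on the colour scale; white lines part the clusters and the sets of libraries. Hoxc12, Hoxc13 and Hoxb13 have their high values in ESCs, and Hoxb2, Hoxd8 and Hoxa10 have theirs in EBs.

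In day 11 EBs of siC, 23 of the 39 genes had a mean of at least 1 RPKM and none was listed at 0. To compare them with ESCs, recovered reads were turned into RPKM by total reads on a single scale, and limma compared log2(RPKM + 0.5) in EBs with the mean of the 48 h and 96 h ESCs over 20800 genes, calling genes at a Benjamini-Hochberg adjusted p under 0.05. Within siC, 26 of the 39 Hox genes were called (38.3% of all genes were): 23 were higher in EBs (21.1% of all genes) and 3 were lower (17.2% of all genes). The median log2 difference was 1.05 for the 39 and 0.03 for all genes. With the 5 genes that had no ESC read set to their bound of 3 reads over the 4 libraries, the Hox median was 1.56. In bulk RNA, a change in the number of cells holding Hox RNA and a change in RNA per cell cannot be told apart.

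By position, 10 of 12 genes numbered 1 to 4 rose in siC EBs, 7 of 11 numbered 5 to 8, and 6 of 16 numbered 9 to 13. Over every gene of each set the median log2 differences were alike, at 1.03, 1.07 and 1.01. The counts called thus do not show a weaker rise of posterior genes. Within siTdg 7, 5 and 7 genes of these sets were called higher, with medians of 0.80, 1.00 and 1.14. All 3 genes called lower in siC carry numbers 12 or 13. By cluster, 7 of 11 Hoxa, 7 of 10 Hoxb, 3 of 9 Hoxc and 6 of 9 Hoxd genes rose in siC EBs. Summed deposited RPKM in siC EBs was 22.0 ± 3.32 for Hoxa, 21.8 ± 3.68 for Hoxd, 17.7 ± 4.33 for Hoxb and 14.4 ± 4.09 for Hoxc (mean ± SD, n = 2). The EB and ESC tables were scaled separately, so these sums were not tested against the ESC sums.

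**Figure D2:**
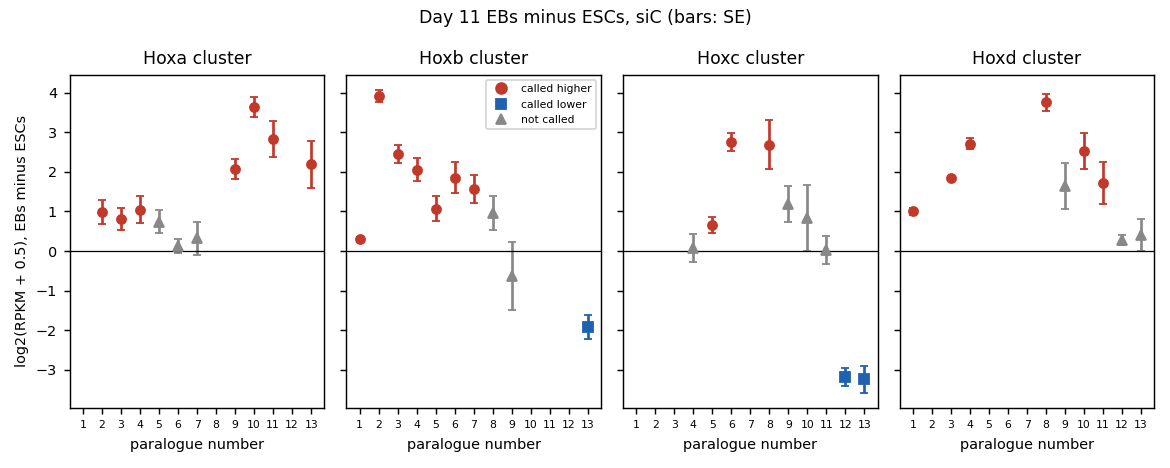
Difference in log2(RPKM + 0.5) between day 11 EBs (2 siC libraries) and ESCs (4 siC libraries of 48 h and 96 h) for each Hox gene, by cluster (panels) and paralogue number (horizontal axis), with standard errors as bars; red circles were called higher, blue squares lower, grey triangles not called. Hoxb2, Hoxd8 and Hoxa10 have the highest differences and Hoxb13, Hoxc12 and Hoxc13 the lowest.

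In Hoxb the rise was steepest at Hoxb2, Hoxb3 and Hoxb4. For the genes that follow, the value in brackets is the log2 difference, EBs minus ESCs within siC, with its standard error (SE) and limma adjusted p. Hoxb2, a hindbrain gene, had 1 read in the 4 siC ESC libraries together and stood at 6.19 and 7.89 RPKM in siC EBs and 5.55 and 7.97 in EBs labelled siTdg. Its log2 difference within siC was 3.92 (SE 0.15, adjusted p = 2.54e-06), the highest of the 39. Hoxb3, its neighbour with a like role, had no read in siC ESCs and 2.60 and 1.78 RPKM in siC EBs, at least 356-fold higher than 3 reads over the 4 ESC libraries would give (2.45, SE 0.22, adjusted p = 0.000105). Hoxb4, known to expand blood stem cells in culture, went from 0.191 to 0.417 RPKM in siC ESCs to 3.10 and 2.28 in siC EBs (2.06, SE 0.29, adjusted p = 0.000949). In EBs labelled siTdg Hoxb3 had 2.11 and 1.93 RPKM and Hoxb4 3.28 and 2.26, so for all 3 genes every EB value lay above every ESC value.

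In log2(RPKM + 0.5) the middle of Hoxb rose less, and Hoxb9 was split. By ratio of EB to ESC means within siC, Hoxb6 (at least 78.5), Hoxb5 (at least 47.3) and Hoxb8 (36.5) exceeded Hoxb4 (10.1). Hoxb7 (8.65) did not. Hoxb6, a trunk gene without a read in siC ESCs, stood at 1.82 and 0.810 RPKM in siC EBs and 2.07 and 0.669 in EBs labelled siTdg (1.86, SE 0.40, adjusted p = 0.00768 within siC). Hoxb7, the next gene, had 0.0269 to 0.362 RPKM in siC ESCs, 1.87 and 1.06 in siC EBs and 2.52 and 1.26 in EBs labelled siTdg (1.56, SE 0.35, adjusted p = 0.00977). Both were higher in the EB libraries numbered 1 than in those numbered 2. Hoxb9 had 3.18 and 0.238 RPKM in siC EBs and 3.13 and 0.266 in EBs labelled siTdg, library 1 of each siRNA within the siC ESC range and library 2 below it, and was not called (-0.62, SE 0.86).

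Hoxd8, a trunk gene, had the highest mean of the 39 in siC EBs. It stood at 7.76 and 9.48 RPKM there, 7.48 and 8.19 in EBs labelled siTdg and 0.0783 to 0.325 in siC ESCs, a ratio of means of 45.4 within siC (3.76, SE 0.22, adjusted p = 1.08e-05). Hoxd4, a gene of the hindbrain and neck, had 0.0691 to 0.151 RPKM in siC ESCs, 3.20 and 3.52 in siC EBs and 1.75 and 2.53 in EBs labelled siTdg (2.70, SE 0.14, adjusted p = 6.53e-06). Hoxd3, whose annotated span overlaps that of Hoxd4, had 3 reads in siC ESCs, 1.04 and 1.59 RPKM in siC EBs and 0.654 and 0.971 in EBs labelled siTdg (1.84, SE 0.07, adjusted p = 2.46e-06). For each of the 3 genes all EB values lay above all ESC values.

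The posterior Hoxd genes spread widely between EB libraries. Hoxd9 had 0.358 to 0.572 RPKM in siC ESCs, 3.77 and 1.505 in siC EBs and 4.60 and 1.18 in EBs labelled siTdg, and was not called (adjusted p = 0.0531). Hoxd10, a limb and spinal cord gene, had 3.88 and 1.53 RPKM in siC EBs and 3.38 and 1.40 in EBs labelled siTdg (2.52, SE 0.45, adjusted p = 0.00302). Hoxd11, which shapes the forearm with Hoxa11, had 2.43 and 0.496 and then 2.10 and 0.577 RPKM (1.71, SE 0.53, adjusted p = 0.0352). Hoxd13, a digit and genital gene, had 1.65 and 0.431 RPKM in siC EBs and 0.860 and 0.623 in EBs labelled siTdg, and was not called. In all 4 genes library 1 was above library 2 within both siRNAs.

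In Hoxa the genes numbered 9 to 13 all rose in siC EBs. Hoxa10, a gene of limb, uterus and blood, had 0.0652 to 0.212 RPKM in siC ESCs, 6.25 and 8.27 in siC EBs and 7.11 and 5.31 in EBs labelled siTdg, a ratio of means of 55.3 within siC (3.64, SE 0.26, adjusted p = 2.95e-05). Hoxa11 had 4.57 and 2.15 RPKM in siC EBs and 5.10 and 1.93 in EBs labelled siTdg (2.83, SE 0.46, adjusted p = 0.00190). Hoxa13, a gene of digits and hindgut, had 3.69 and 0.983 and 3.53 and 0.803 RPKM in the same groups (2.19, SE 0.59, adjusted p = 0.0205). Hoxa9, known in blood progenitors, had 1.87 and 1.43 and 1.62 and 0.958 RPKM (2.07, SE 0.24, adjusted p = 0.000397). For these genes every EB value lay above every ESC value, and Hoxa9, Hoxa11 and Hoxa13 were higher in library 1 of each siRNA.

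The anterior Hoxa genes moved less. Hoxa2, Hoxa3 and Hoxa4 were called higher within siC, by 0.99 (SE 0.29, adjusted p = 0.0289), 0.81 (SE 0.27, adjusted p = 0.0479) and 1.05 (SE 0.35, adjusted p = 0.0440). Hoxa3 had 0.998 and 0.316 RPKM in siC EBs and 0.373 and 0.348 in EBs labelled siTdg, and Hoxa4 1.30 and 0.315 and 0.565 and 0.542. Library 1 of siC thus stood well above the other 3 for both. Hoxa5 had 0.905 and 0.228 RPKM in siC EBs and Hoxa7 0.656 and 0.329, and neither was called. In the RefSeq annotation (GRCm38.p6) 20 of the 39 genes overlap another gene, Hoxa3 with Hoxa4, Hoxa5 and Hoxa6 among them, and since the use of strand in counting is not stated, their reads cannot be assigned with certainty.

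Hoxc was the most divided cluster. Hoxc6, a thoracic gene, had 0.0858 to 0.264 RPKM in siC ESCs, 2.99 and 5.52 in siC EBs and 4.04 and 3.85 in EBs labelled siTdg (2.75, SE 0.22, adjusted p = 5.23e-05). Hoxc8, also of the trunk, had 0.0476 to 0.173 RPKM in siC ESCs, 5.34 and 1.92 in siC EBs and 7.38 and 1.61 in EBs labelled siTdg (2.68, SE 0.62, adjusted p = 0.0106). Hoxc4 had 1.94 and 1.54 RPKM in siC EBs and 2.14 and 1.00 in EBs labelled siTdg, within or near its ESC range (0.08, SE 0.35). Hoxc9 and Hoxc10, genes of the lower trunk and lumbar region, were not called. Hoxc9 had 1.68 and 0.779 RPKM in siC EBs and 2.30 and 0.707 in EBs labelled siTdg, and Hoxc10 3.57 and 0.728 and 5.01 and 0.664. Library 1 was the higher of each pair.

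At the posterior end of Hoxc the direction was the opposite. Hoxc13 was down to 0.293 and 0.0660 RPKM in siC EBs and 0.328 and 0.0908 in EBs labelled siTdg, a ratio of ESC to EB means of 29.1 within siC (-3.24, SE 0.34, adjusted p = 0.000222). Hoxc12 had 425 reads in the 4 siC ESC libraries and 1 in the 2 siC EB libraries (-3.18, SE 0.23, adjusted p = 3.30e-05). In the 2 EB libraries labelled siTdg it had none, at least 69.3-fold lower than in siTdg ESCs if 3 reads over both EB libraries are allowed. Hoxb13 stood at 0.192 and 0.0408 RPKM in siC EBs and 0.0493 and 0.0421 in EBs labelled siTdg (-1.91, SE 0.31, adjusted p = 0.00179). For these 3 genes no EB value reached the lowest ESC value. Hoxc11, next to Hoxc12, did not follow it, with a log2 difference of 0.02 (SE 0.35).

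**Figure D3:**
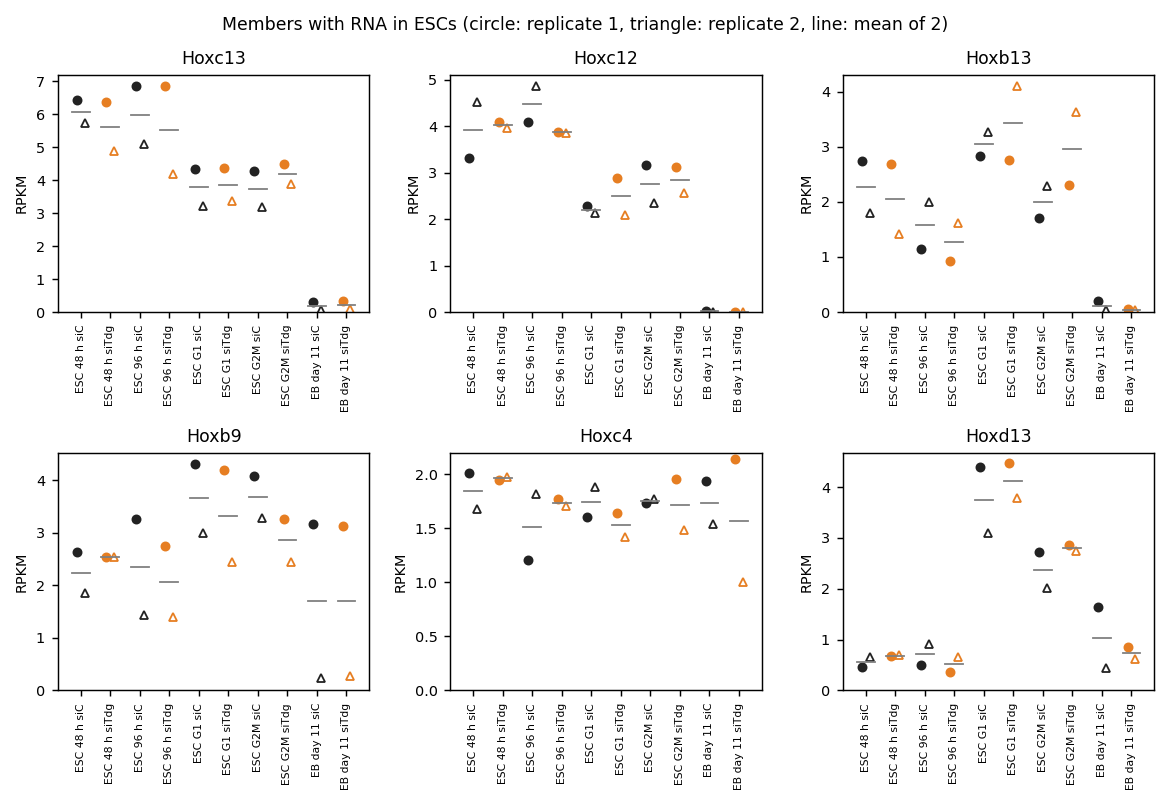
RPKM of 6 Hox genes in the 10 groups (black siC, orange siTdg; circles library 1, triangles library 2, lines the mean of 2). Hoxc13, Hoxc12 and Hoxb13 were under 0.35 RPKM in every EB library, Hoxb9 was split between EB libraries by number, and Hoxd13 was highest in sorted ESCs.

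Of the genes that rose in EBs, Hoxd8, Hoxd4, Hoxd3, Hoxd10 and Hoxb4 are shown with the bases before their start because each holds AGGTCA, the half-site that retinoic acid receptors are known to bind. RefSeq (GRCm38.p6) gave the 250 bases before 24 starts of 22 of the 39 genes. AGGTCA stood on either strand in 6 of the 24 (25.0%), those of Hoxb4, Hoxc4, Hoxd3, Hoxd4, Hoxd8 and Hoxd10, and in 4607 of all 32851 promoters of that length (14.02%). CG dinucleotides numbered 12.5 in the median Hox promoter, from 2 to 35, and 6 in the median of all. AGGTCA was absent before the starts of Hoxa9, Hoxa10, Hoxa11 and Hoxa13, which also rose, while Hoxc4 holds it and was not called higher. For Hoxb2, Hoxb3, Hoxc6 and Hoxc8, which rose too, no such bases were given. A match describes letters only, and a link to the rise was not tested. Capitals mark AGGTCA or its reverse complement TGACCT, and the 5 genes lie on the plus strand, at chr2:74704365-74704614, chr2:74721728-74721977, chr2:74711743-74711992, chr2:74691641-74691890 and chr11:96318017-96318266 in the order given.
Hoxd8: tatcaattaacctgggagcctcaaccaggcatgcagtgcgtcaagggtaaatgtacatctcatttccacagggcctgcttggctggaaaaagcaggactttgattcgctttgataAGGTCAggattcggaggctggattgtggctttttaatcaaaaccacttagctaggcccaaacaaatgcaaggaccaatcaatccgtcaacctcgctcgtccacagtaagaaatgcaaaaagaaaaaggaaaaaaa
Hoxd4: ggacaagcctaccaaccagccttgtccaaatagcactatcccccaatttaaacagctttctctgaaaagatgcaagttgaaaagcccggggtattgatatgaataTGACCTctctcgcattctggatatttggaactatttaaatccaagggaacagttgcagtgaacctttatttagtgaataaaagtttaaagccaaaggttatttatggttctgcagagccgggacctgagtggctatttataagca
Hoxd3: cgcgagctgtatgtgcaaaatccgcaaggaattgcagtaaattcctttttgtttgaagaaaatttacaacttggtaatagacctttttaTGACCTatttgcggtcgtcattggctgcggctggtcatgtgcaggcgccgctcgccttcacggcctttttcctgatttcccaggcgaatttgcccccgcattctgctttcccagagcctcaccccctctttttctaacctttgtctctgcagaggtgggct
Hoxd10: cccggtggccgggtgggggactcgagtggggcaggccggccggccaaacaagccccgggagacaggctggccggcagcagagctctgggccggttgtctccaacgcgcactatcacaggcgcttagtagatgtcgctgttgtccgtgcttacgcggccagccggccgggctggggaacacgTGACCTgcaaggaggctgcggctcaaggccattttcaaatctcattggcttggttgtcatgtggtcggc
Hoxb4: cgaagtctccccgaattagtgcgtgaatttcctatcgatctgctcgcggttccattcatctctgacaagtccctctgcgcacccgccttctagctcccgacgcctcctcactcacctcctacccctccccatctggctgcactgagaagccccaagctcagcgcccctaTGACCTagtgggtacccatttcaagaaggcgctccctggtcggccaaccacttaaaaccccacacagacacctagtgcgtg

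Compared with siTdg ESCs, the EBs labelled siTdg had 22 Hox genes called (37.1% of all genes), 19 higher (19.7% of all genes) and 3 lower (17.4% of all genes). The 3 lower were again Hoxc12, Hoxc13 and Hoxb13. Hoxb2 (3.79), Hoxd8 (3.39) and Hoxa10 (3.34) had the highest differences on the log2 scale here as well. The difference between the 2 siRNAs in the EB minus ESC value was called by limma for none of the 39 (0.0144% of all genes), and by limma-voom on recovered reads for none. At an unadjusted p under 0.05 there were 4, against 332 of all 20800 genes: Hoxd3 (-0.49, SE 0.10, adjusted p = 0.750), Hoxd4 (-0.47), Hoxd1 (-0.36) and Hoxb1 (-0.16), all on the side of a smaller rise in siTdg. Fits with both EB libraries of the same number left out were chosen after seeing the data and keep 1 EB library per siRNA. Their spread comes from the ESC libraries alone, so their calls, given in the last section, cannot test a difference in EBs.

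Single EB libraries carry part of the calls within siC. Without the siC EB library numbered 1, 16 Hox genes were called in place of 26, and Hoxa2, Hoxa3, Hoxa4, Hoxa13, Hoxb5, Hoxb6, Hoxb7, Hoxc5, Hoxc8 and Hoxd11 lost their call. Without the one numbered 2, 32 were called. In every alternative run that tested them, 16 of the 26 kept their call. Among them were Hoxb2, Hoxb3, Hoxb4, Hoxd8, Hoxd4, Hoxa10, Hoxc6, Hoxb13, Hoxc12 and Hoxc13. Hoxb1, Hoxd1 and Hoxd3 are also counted in the 16, but a filter of 0.5 RPKM removed them, so that alternative did not test them.

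Between siRNAs within EBs no Hox gene was called. Of the 39, 27 had a mean of at least 0.5 RPKM over the 4 EB libraries and were tested on deposited RPKM. Limma called none of the 27 (0.00% of all 13300 genes), none had an unadjusted p under 0.05, against 20 of all genes, and limma-voom also called none. Neither fit used the library number, although same-numbered EB libraries deviated together (r = 0.951). The spread between numbers thus widens the standard errors here, and siRNA differences can go uncalled. The median log2 difference was -0.07 for the 27 and 0.02 for all genes. Hoxd4 and Hoxd3, with the RPKM given above, were the tested Hox genes whose EB libraries labelled siTdg both lay below both siC libraries (4.13% of all genes), and none had both above (5.17% of all genes). Their differences were -0.57 (SE 0.35) and -0.46 (SE 0.37), each with an adjusted p of 1.00, and the highest was 0.27 for Hoxb7 (SE 0.46). In the authors' deposited table Hoxd4 stood at -0.68 with an unadjusted p of 0.0263 and an adjusted p of 1.00. The leading gene of each cluster had -0.21 (Hoxa10, SE 0.38), -0.07 (Hoxb2, SE 0.38), -0.04 (Hoxc6, SE 0.42) and -0.12 (Hoxd8, SE 0.35). The last 3 changed sign with 1 library left out.

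EB libraries of different number differed far more than those of different siRNA. With siRNA and number as terms, limma called 20 of the 27 tested Hox genes (73.9% of all genes), 2 higher in libraries numbered 2 (37.6% of all genes) and 18 lower (36.4% of all genes). The share called is close to that of all genes, while the median log2 difference, number 2 minus number 1, was -0.59 against 0.00 for all genes. It was -0.27 over the 9 tested genes numbered 1 to 4 (2 higher, 4 lower), -0.69 over the 7 numbered 5 to 8 (4 lower) and -1.07 over the 11 numbered 9 to 13 (10 lower). Among the lower genes numbered 1 to 4, Hoxa3 (-0.88 in siC, -0.04 in siTdg) and Hoxa4 (-1.15 and -0.03) differed almost only in siC. Across the alternative runs, 13 of the 20 called Hox genes kept their call throughout. Scaled by total reads, the median of all genes moved to -0.39, with 33.6% of the called genes higher in place of 50.8%, and 1 Hox gene was higher and 23 lower.

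**Figure D4:**
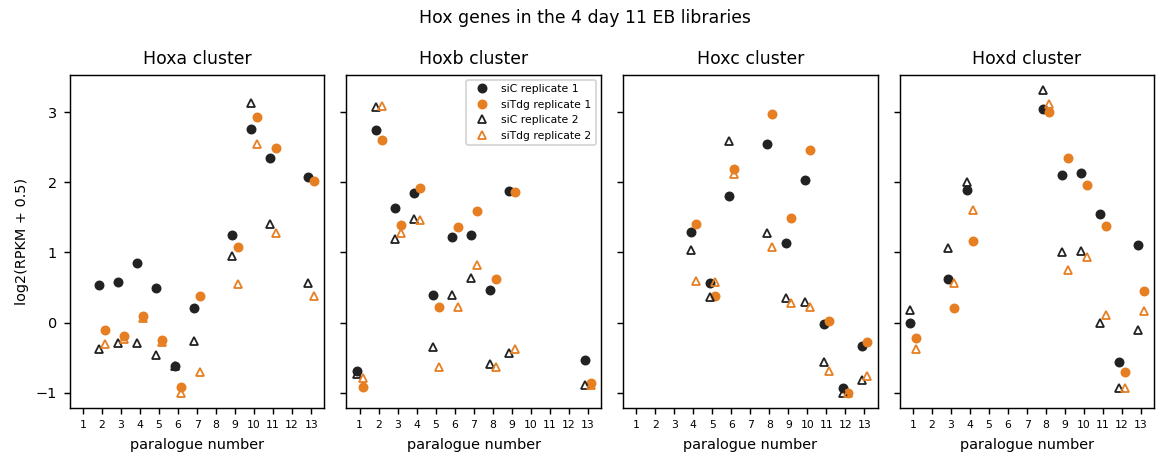
Levels of the Hox genes in the 4 day 11 EB libraries as log2(RPKM + 0.5), by cluster (panels) and paralogue number (horizontal axis); filled circles are libraries numbered 1, open triangles those numbered 2, black siC and orange labelled siTdg. On the deposited scale, of the 11 tested genes numbered 9 to 13, all but Hoxa10 were called lower in the libraries numbered 2.

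Hoxb9 differed most between numbers (-2.28, SE 0.18, adjusted p = 2.00e-12). Hoxc10 (-1.99), Hoxc8 (-1.59), Hoxa13 (-1.56), Hoxd11 (-1.41) and Hoxd9 (-1.35) came next. Hoxa10 was at -0.01 (SE 0.17), from 0.38 in siC and -0.39 in siTdg. It was not called here, but was called with limma-voom and with scaling by total reads. Hoxb2 was called higher by 0.41 (SE 0.15) but stood at -0.01 when scaled by total reads, so its direction depends on the scaling. Hoxd3, Hoxc6, Hoxd4 and Hoxd8, at 0.39, 0.36, 0.27 and 0.20, were not called.

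Marker genes of several cell types moved with the number, and their part in the Hox difference was not tested. The 6 blood and endothelial markers summed to 321 and 735 RPKM in number 2 and 10.1 and 16.4 in number 1, with 3 of 5 tested higher and 2 lower, and Gata1 was at 0.0992 to 0.232 RPKM, near its ESC level. The 6 neural markers summed to 2.63 and 2.80 RPKM in number 2 and 19.1 and 18.9 in number 1, with both tested genes, Nes and Tubb3, lower. The 8 markers of paraxial and lateral mesoderm summed to 51.9 and 45.2 RPKM in number 2 and 91.9 and 106 in number 1, with 3 of 4 tested lower. Yolk sac and endoderm markers (6) summed to 226 and 400 RPKM against 93.8 and 181, with 3 of 6 tested higher and 3 lower. Cardiac markers (6) summed to 185 and 399 RPKM against 88.3 and 75.5, with 1 of 5 tested higher, 1 lower and a median log2 difference of -0.26. No gene of these lists was at 0 in both libraries of an EB group. Hox reads made up 0.0127% and 0.0108% of all reads in number 2 and 0.0242% and 0.0217% in number 1.

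In unsorted ESCs no tested Hox gene was called between siTdg and siC. Of the 39, 8 passed a mean of 0.5 RPKM, among them Hoxb9, Hoxb13, Hoxc4, Hoxc10, Hoxc12, Hoxc13 and Hoxd13. Limma called none at 48 h or at 96 h (0.00% of all 12190 genes at either time), none had an unadjusted p under 0.05, against 54 and 11 of all genes, and limma-voom called no Hox gene. Neither fit used the library number, although same-numbered siC and siTdg libraries deviated together (r = 0.852 at 48 h and 0.93 at 96 h). With that number as a term limma called no Hox gene at either time. Tdg itself, at a log2 difference of -2.12 at 48 h, was not called by limma without that term. A missing call here thus does not show that a gene was unchanged. The authors' deposited comparison gave 113 genes an adjusted p under 0.05 at 48 h, no Hox gene among them. It gave an adjusted p for 1 Hox gene. Among the Hox genes named, log2 differences ran from -0.15 (Hoxb13, SE 0.38) to 0.17 (Hoxd13, SE 0.26) at 48 h and from -0.25 (Hoxd13, SE 0.26) to 0.17 (Hoxc4, SE 0.22) at 96 h. Hoxc13 had 6.36 and 4.87 RPKM in siTdg at 48 h and 6.86 and 4.18 in the libraries labelled siTdg at 96 h, Hoxc12 4.09 and 3.95 and 3.88 and 3.86, and Hoxb13 2.68 and 1.41 and 0.927 and 1.62. At 96 h both Hoxc12 values lay below both siC values, 4.09 and 4.87, but the difference was not called. How many of all genes had no overlap at 96 h was not counted, and Tdg RNA did not separate the siRNAs then.

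Values of sorted and unsorted ESCs come from tables scaled separately, so their Hox levels were set side by side without a test. In siC, 12 genes averaged 1 RPKM or more in G1 and 11 in G2M. Of 33 Hox genes with the same length in both kinds of table, 13 were higher in all 4 sorted than in all 4 unsorted siC libraries, and 1, Hoxc13, was lower. The matching share of all genes without a cut on level was not counted. Some of the 13 were near 0, such as Hoxb1 at 0.014 to 0.057 RPKM against 0. Of the 14 among the 33 that also averaged 0.5 RPKM in either kind of siC cells, 8 were higher in all 4, against 17.0% of all genes chosen the same way. Hoxa3, Hoxa5, Hoxa7, Hoxa9, Hoxa10, Hoxd8 and Hoxd9 reached that level through the sorted cells alone. The choice thus favours genes higher there, and the shares are no support for a difference. Most of the 13 are Hoxa genes: Hoxa7 stood at 2.23 to 3.01 RPKM against 0.157 to 0.598 and Hoxa5 at 1.05 to 1.71 against 0.0546 to 0.187. Hoxd9 had 1.11 to 1.30 RPKM against 0.358 to 0.572. Hoxa summed to 15.4 ± 1.15 RPKM in G1 and 13.1 ± 0.456 in G2M of siC (mean ± SD, n = 2). The ESC markers summed to 2123 to 2295 RPKM in these sorted libraries, inside their range in unsorted ESCs.

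Between G1 and G2M no Hox gene was called by the fit that leaves replicate number out. With that number as a term Hoxb13 and Hoxd13 had calls, given beside those of all genes in the last section. Of the 18 tested, limma without that term called none in siC (0.120% of all 12462 genes either way, 0.0160% lower) and none in siTdg (0.169% either way, 0.0241% lower), and limma-voom none. At an unadjusted p under 0.05 there were 4 in siC and 2 in siTdg, against 1012 and 1241 of all genes. In siC, 6 of the 18 had both G2M libraries below both G1 libraries (17.8% of all genes), namely Hoxa3, Hoxa5, Hoxa9, Hoxb13, Hoxd8 and Hoxd13, and in siTdg 4 (13.6% of all genes), Hoxc5, Hoxd8, Hoxd9 and Hoxd13. Both G2M libraries lay above both G1 libraries for 2 of the 18 in siC (23.3% of all genes), Hoxb7 and Hoxc12, and for 2 in siTdg (19.7% of all genes), Hoxb7 and Hoxa9. Hoxa9 thus stood on opposite sides in the 2 siRNAs. Hoxd13 stood at 4.40 and 3.10 RPKM in G1 and 2.73 and 2.02 in G2M of siC, and at 4.47 and 3.79 and 2.87 and 2.74 in siTdg. The phases thus did not overlap within either siRNA, but the differences were not called (-0.56, SE 0.19, adjusted p = 0.500 in siC, and -0.48, SE 0.19, adjusted p = 0.471 in siTdg). In the authors' deposited table for siC its log2 difference was -0.65 with an adjusted p of 0.0546, the lowest adjusted p of any Hox gene in their 5 comparisons.

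Within a phase, siTdg and siC differed for none of the 18 by limma or limma-voom. The gene called by limma in each phase (0.00802% of all genes) was Tdg. At an unadjusted p under 0.05, with 428 of all genes in G1 and 257 in G2M, stood Hoxd9 in G1 (0.47, SE 0.12) and Hoxa5 in G2M (0.41, SE 0.13).

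In no group did 9 of the genes average 1 RPKM: Hoxa2, Hoxa6, Hoxb1, Hoxb5, Hoxb8, Hoxc5, Hoxc11, Hoxd1 and Hoxd12. Their highest group means ran from 0.0975 to 0.895 RPKM. Hoxb1 and Hoxd1, of the first paralogue group, were called higher in siC EBs (0.31, SE 0.04, adjusted p = 0.00115, and 1.00, SE 0.09, adjusted p = 0.000132), from 0 and 9 reads in the 4 siC ESC libraries to 16 and 66 in the 2 EB libraries. Hoxb5 (1.07, SE 0.31, adjusted p = 0.0254) and Hoxc5 (0.66, SE 0.21, adjusted p = 0.0367) were called as well. Hoxd12 had no read in siC ESCs and 22 in siC EBs, and was not called.

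Partners and regulators of the Hox genes were followed in lists, whose shares stand beside the 21.1% of all genes called higher and 17.2% called lower in siC EBs. Of 9 TALE cofactors 5 rose and none fell, with a median log2 difference of 1.65. Meis1, a cofactor of posterior Hox proteins, went from 0.175 to 0.275 RPKM in siC ESCs to 14.4 and 12.1 in siC EBs (4.25, SE 0.27, adjusted p = 1.87e-05). Meis3 (3.84), Pbx3 (3.52) and Pbx2 (1.65) were also among the 5. Of 18 genes of the retinoic acid pathway 10 rose and 1 fell, with a median of 0.79. The receptor Rarb (3.71), the synthetic enzymes Aldh1a1 (4.02) and Aldh1a2 (2.89) and the degrading enzyme Cyp26a1 (2.67) rose, and the synthetic enzyme Aldh1a3 fell (-1.17).

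Among 31 Polycomb genes 6 rose and 10 fell in siC EBs, with a median of -0.01. The core of the H3K27 methyltransferase fell, Ezh2 (-1.91), Eed (-1.85) and Suz12 (-2.31) alike, and so did Cbx7 (-4.12), a reader of its mark. Yaf2, a subunit of Polycomb repressive complex 1, rose (3.61). Of 14 Trithorax genes and H3K27 demethylases none rose and 4 fell: Wdr5, Ash2l, Rbbp5 and Psip1. Of 12 caudal and posterior regulators 3 rose and 6 fell. Cdx1, which acts on Hox genes, stood at 8.68 to 27.3 RPKM in siC ESCs and 0.0240 and 0 in siC EBs, while Cdx2 was not called (0.86, SE 0.38).

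Of 17 tested genes inside or beside the clusters, 8 rose in siC EBs and 2, Skap2 and Ttll6, fell. Hotairm1, a long non-coding RNA of the Hoxa cluster, had 1.11 to 2.38 RPKM in siC ESCs, 7.87 and 41.3 in siC EBs and 7.42 and 34.5 in EBs labelled siTdg. It was thus higher in number 2. Hoxa11os, antisense to Hoxa11, rose by 3.08. Hotair, which lies between Hoxc11 and Hoxc12, was at 0.0472 and 0 RPKM in siC EBs, with a log2 difference of 0.02. No gene of these lists was called between siTdg and siC in EBs.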

How the data were processed

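The 20 RNA libraries (10 groups of 2, of 47 samples in the series) were rRNA-depleted total RNA, per the labels' protocols. The authors deposited RPKM, scaled within each of 5 tables of 4 libraries, and DESeq2-type tables of their own comparisons: mean signal over libraries, log2 fold change, its score (fold change over standard error) and p-value, per the file headers. TopHat, Bowtie, DESeq2, DiffBind, mm9 and dm3 are named without roles or versions, per the submitters' processing notes. For strand use, annotation and the making of replicates nothing is given in the sources used here. Columns named G2 in the sorted tables were matched to samples titled G2M. The 4 per-sample columns that match no sample were not used, and binding peaks, ATAC and DIP data were not analysed here.

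Deposited RPKM correspond to whole reads (100.0% of values within 0.01 reads in each table), and recovered reads gave depths and, for EBs against ESCs, a common scale by total reads. Limma 3.58.1 (R 4.3.3) with an intensity trend was fitted to log2(RPKM + 0.5) over genes averaging 0.5 RPKM or more, and without that filter for EBs against ESCs, over the groups of each comparison, calling genes at a Benjamini-Hochberg adjusted p under 0.05. Log2 differences on this scale understate changes of low genes. Levels were summarised with pandas 2.3.3. The models were run on simulated data with independent noise in each library. Shared deviations of same-numbered libraries were left out of it, so it does not show how the fits behave with them. No 2 libraries agreed within sampling noise (lowest chi-square per degree of freedom 4.63). Alternatives were other pseudocounts, filters, scalings, limma-voom, a replicate block and each library left out. Genes are named by level (a mean of at least 1 RPKM in any group) or by a call. Members, lists and rules were chosen with earlier results of these data known. Homeodomain sequences are not shown here. Some items counted among the genes are not reported here by name or drawn in the figures.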

Additional observations from a re-analysis of the deposited data

How the results depend on the processing

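Replicate numbers join only 2 pairs per comparison and no label says what they share, although deviations of same-numbered libraries correlated at 0.599 to 0.951. With the replicate block, 2 Hox genes were called between G2M and G1 in siC (Hoxb13 and Hoxd13, both lower) and 1 in siTdg (Hoxd13, lower), against 0 without it. In the other comparisons the block left the count of Hox genes within 1.5 times. Over all genes it called 150 in EBs between siRNAs in place of 0, 614 between phases in siC in place of 15, and 985 in siTdg in place of 21.

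Within siC, the count of Hox genes called between EBs and ESCs ran from 16 to 32 with 1 library left out, the lowest without the siC EB library numbered 1; within siTdg it ran from 17 to 28. For the difference between siRNAs in that comparison, 3 were called with both EB libraries numbered 1 left out (Hoxb5, Hoxb6 and Hoxd3) and 6 with both numbered 2 left out (Hoxb1, Hoxb3, Hoxb5, Hoxd3, Hoxd4 and Hoxd12), alternatives chosen after seeing the data, as was scaling by total reads. Over all genes that count ran from 0 to 1242 in place of 3. Without the filter, 4 genes were called at 96 h in place of 0, and 6 in G1 and 4 in G2M in place of 1. The siTdg minus siC difference in EBs reversed for Hoxb2 (0.10), Hoxc6 (0.35) and Hoxd8 (0.011) without siC replicate 2 and for Hoxb2 (0.18) without siTdg replicate 1. With 1 library left out, it ran from -0.31 to 0.18 for Hoxb2, -0.44 to 0.35 for Hoxc6 and -0.26 to 0.011 for Hoxd8. The number 2 minus number 1 difference of Hoxb2 was -0.0081 with limma-voom and -0.0051 with total reads. Where an arm kept 1 library, it was assumed to vary like the other groups. The cause of these changes was not tested. Leaving libraries out of the comparison of numbers was not run, since too few residual degrees of freedom remain. With 2 libraries a group, differences well above their standard errors could also go uncalled. Examples are Hoxd13 between phases and Hoxd3 in the difference between siRNAs in the EB minus ESC value. A missing call thus does not show that a gene was unchanged.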
